A study of Mus musculus with 21 samples.

Results

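Expression of 8 genes for muscle ankyrin repeat and mechanosensing proteins was followed in mouse quadriceps muscle through recovery from exhaustive exercise. The genes are Ankrd1, Ankrd2, Ankrd23, Csrp3, Xirp1, Xirp2, Mustn1 and Nrap, taken by symbol from the 53738 gene symbols of the expression table. They were chosen as stretch-responsive sarcomere genes from results of these same libraries, so their levels, differences and calls are given as a description with no p-value for any of them. Bulk RNA-seq covered 7 groups of 3 libraries from wildtype male C57/Bl6 mice aged 22 to 26 weeks at sacrifice. Sedentary mice were the baseline control, with neither the wheel training nor the exhaustive bout. Untrained and trained mice ran to exhaustion on a treadmill in the last performance test, the acute bout, and were killed 0 h, 6 h or 72 h later. The trained mice had lived with a running wheel for 12 weeks before that bout. No group was trained without the bout, so the 12 weeks of running and the bout cannot be told apart in the differences between trained and sedentary muscle. Each mouse ran to its own exhaustion, so the bout was not matched for work between trained and untrained mice.

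Striated muscle senses load at the Z-disc, at titin in the I-band and at the costamere, the lattice that ties the outer myofibrils to the cell membrane and matrix. Ankrd1 (CARP), Ankrd2 and Ankrd23 (DARP) form the muscle ankyrin repeat family, which binds the N2A region of titin and can also enter the nucleus. Csrp3, the muscle LIM protein, is a Z-disc protein, Xirp1 and Xirp2 are Xin repeat proteins that bind and bundle actin filaments at junctions and regenerating sites, and Nrap, the nebulin-related anchoring protein, takes part in myofibril assembly and in anchoring actin at cell junctions. Mustn1 encodes a small protein of the musculoskeletal system.

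The deposited values are TPM, transcript abundances scaled for length and to one total per library, so that levels can be set side by side between genes. They keep no read counts, so sequencing depth is unknown here and the precision of a level rests on how far the libraries of a group spread. The TPM of a library summed to 997304 to 997921, and genes of the mitochondrial genome took 37.7% to 48.0% of it. The library labelled replicate 1 of untrained 0 h and the one labelled replicate 1 of trained 0 h were the same in all 53738 rows, and its true group is unknown. It was left out of both 0 h groups, which leaves n = 2 there and n = 3 elsewhere, and its value is given beside each gene. The markers of skeletal muscle fibres were high in every library, with a sum over 6 genes of 67979 to 93402 TPM. In bulk tissue, fewer cells of a type and less RNA per cell cannot be told apart. Nothing in the labels says whether the replicates were separate mice, so the p-values given for other genes measure the spread between these libraries.

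All 8 genes are protein-coding genes of the GRCm39 annotation, the build of the expression values. Ankrd1, Ankrd2 and Nrap lie on chromosome 19, at 36089352 to 36097506 (minus strand), 42024274 to 42033552 (plus strand) and 56308454 to 56378631 (minus strand). Ankrd23 lies on chromosome 1 at 36563865 to 36575964 (minus strand), Xirp2 on chromosome 2 at 67004178 to 67356962 (plus strand) and Csrp3 on chromosome 7 at 48480142 to 48497901 (minus strand). Xirp1 lies on chromosome 9 at 119842821 to 119852664 (minus strand) and Mustn1 on chromosome 14 at 30601157 to 30603567 (plus strand). Upstream windows of 250 bases before the transcription start were taken from RefSeq on the older build GRCm38.p6, which held 7 of the 8 genes in 9 windows; Xirp1 had no entry. Both strands were searched for the M-CAT element CATTCC that TEAD factors bind, the AP-1 site TGACTCA, the CArG box of SRF and the MEF2 box, and these motifs did not overlap in the windows shown. The windows of the 3 ankyrin repeat genes are shown because the family members responded so differently, and that of Xirp2 because it was the only window of the set with an AP-1 or MEF2 match. Capitals mark the matches, and GGAATG is the M-CAT element read on the opposite strand.
Ankrd1, chr19:36119845-36120094, minus strand: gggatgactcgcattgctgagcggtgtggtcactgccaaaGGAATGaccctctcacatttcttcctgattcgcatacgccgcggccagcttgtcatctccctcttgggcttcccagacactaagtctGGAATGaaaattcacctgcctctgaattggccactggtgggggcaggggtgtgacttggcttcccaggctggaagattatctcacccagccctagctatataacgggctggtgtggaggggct
Ankrd2, chr19:42035777-42036026, plus strand: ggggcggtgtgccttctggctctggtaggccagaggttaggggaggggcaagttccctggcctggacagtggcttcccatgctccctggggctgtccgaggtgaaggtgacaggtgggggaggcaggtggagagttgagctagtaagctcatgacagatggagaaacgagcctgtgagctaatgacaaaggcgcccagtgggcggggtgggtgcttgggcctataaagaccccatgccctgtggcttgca
Ankrd23, chr1:36535740-36535989, minus strand: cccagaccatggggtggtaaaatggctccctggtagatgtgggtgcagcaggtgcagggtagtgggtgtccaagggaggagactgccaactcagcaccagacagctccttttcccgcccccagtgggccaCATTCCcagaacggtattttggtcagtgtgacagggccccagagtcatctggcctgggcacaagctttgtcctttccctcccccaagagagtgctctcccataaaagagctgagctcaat
Xirp2, chr2:67445752-67446001, plus strand: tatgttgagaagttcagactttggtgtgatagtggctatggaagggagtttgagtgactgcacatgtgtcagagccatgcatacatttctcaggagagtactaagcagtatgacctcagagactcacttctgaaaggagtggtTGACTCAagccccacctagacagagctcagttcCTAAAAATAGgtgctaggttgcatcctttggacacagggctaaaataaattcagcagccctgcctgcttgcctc

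The Ankrd1 window held 2 M-CAT elements, at 210 to 205 and at 123 to 118 bases before the start. Ankrd23 held 1 in the window shown, at 120 to 115 bases, and none in its other window. Among all 32851 windows 12.6% held an M-CAT element, so 2 of 7 genes is a description of these letters and no site of binding. Xirp2 held the AP-1 site at 107 to 101 bases and a MEF2 box at 74 to 65 bases, which occurred in 4.46% and 2.92% of all windows. No member window held a CArG box, which 1.47% of all windows did. The windows of Ankrd2, Csrp3, Mustn1 and Nrap held none of the 4 motifs.

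Ankrd1, a cofactor of transcription that is abundant in heart and scarce in resting limb muscle, had the widest range of the 8 genes. Its sedentary libraries held 2.18, 2.68 and 1.63 TPM. In untrained muscle it stood at 3.87 and 5.43 TPM at 0 h, at 96.4, 175 and 68.8 TPM at 6 h and at 3.75, 5.62 and 3.65 TPM at 72 h. In trained muscle the libraries held 3.01 and 3.11 TPM at 0 h, 20.5, 5.22 and 2.47 TPM at 6 h and 1.77, 2.48 and 1.43 TPM at 72 h, and the library deposited under both 0 h groups held 4.18 TPM. All 3 untrained 6 h libraries lay far above every other library, and the trained 6 h libraries reached from the sedentary range to 20.5 TPM. Untrained 6 h muscle stood 5.33 ± 0.53 above sedentary muscle on the log2(TPM + 0.5) scale (SE, n = 3 against 3), which is 40.2-fold. The SE of each difference pools the spread over all 7 groups. By level it moved from rank 8987 of the 11822 tested genes in sedentary muscle to rank 527. At 0 h and 72 h the untrained libraries also lay above the sedentary ones, by 0.95 ± 0.59 and 0.86 ± 0.53 on the log2 scale, and neither difference was called. The trained 0 h libraries lay above the sedentary ones as well, by 0.44 ± 0.59, which was not called. The group means of Ankrd1 spanned 59.9-fold, from 1.89 ± 0.538 TPM in trained 72 h muscle to 113 ± 55.2 TPM in untrained 6 h muscle (SD).

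Ankrd2, the family member linked to slow fibres and stretch, started well above Ankrd1. Sedentary muscle held 50.1, 66.2 and 47.1 TPM. In untrained mice it stood at 56.0 and 72.5 TPM at 0 h, at 266, 160.5 and 172 TPM at 6 h and at 44.2, 54.4 and 45.7 TPM at 72 h. Trained muscle gave 51.5 and 54.4 TPM at 0 h, 105, 62.8 and 43.4 TPM at 6 h and 17.1, 16.6 and 19.5 TPM at 72 h, and the library deposited under both 0 h groups held 67.1 TPM. The untrained 6 h group lay above all other libraries and the trained 72 h group below all others, so that this gene left the sedentary range in both directions. Untrained 6 h muscle was 1.84 ± 0.26 above sedentary muscle on the log2 scale, 3.58-fold, and trained 72 h muscle lay 2.99-fold lower, a log2 difference of -1.58 ± 0.26. The means were 54.5 ± 10.3 TPM in sedentary, 199 ± 57.8 TPM in untrained 6 h and 17.8 ± 1.55 TPM in trained 72 h muscle (SD, n = 3 each).

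Ankrd23 was the most abundant of the 3 ankyrin repeat genes and was called higher in no comparison. In sedentary muscle it stood at 554, 479 and 542 TPM. In untrained quadriceps it stood at 493 and 491 TPM at 0 h, at 475, 517 and 378 TPM at 6 h and at 562, 639 and 548 TPM at 72 h. In trained muscle the libraries held 559 and 539 TPM at 0 h, 389.6, 304 and 304 TPM at 6 h and 416, 371 and 375 TPM at 72 h, and the library deposited under both 0 h groups held 560.4 TPM. Its untrained 6 h libraries overlapped the sedentary ones, with a log2 difference of -0.21 ± 0.12. All 6 trained libraries of 6 h and 72 h lay below all 3 sedentary ones. Trained 6 h muscle stood 1.58-fold lower than sedentary muscle, a log2 difference of -0.66 ± 0.12, and trained 72 h muscle differed by -0.44 ± 0.12, which was not called. Ordered by mean, no 2 neighbouring groups of Ankrd23 were apart, and its group means spanned 1.75-fold.

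Because TPM are per length, the 3 genes can be set against their own sum. In sedentary muscle Ankrd23 made up 90.2% ± 2.40 (SD, n = 3) of the family's TPM, Ankrd2 9.44% ± 2.30 and Ankrd1 0.375% ± 0.108. In untrained 6 h muscle Ankrd23 held 59.5% ± 2.38, Ankrd2 26.1% ± 6.62 and Ankrd1 14.4% ± 5.33. In trained 6 h muscle Ankrd23 still held 81.4% ± 5.61 and Ankrd1 2.03% ± 1.72. By 72 h Ankrd23 was at 91.8% ± 0.368 in untrained and at 95.2% ± 0.476 in trained muscle, where Ankrd2 had come to 4.37% ± 0.506. In untrained 6 h muscle the shares of the 2 scarcer genes lay above those of sedentary muscle while the level of Ankrd23 overlapped it.

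Csrp3, the Z-disc LIM protein that myocytes need to keep their cytoarchitecture, had Ankrd2 as its closest match over the libraries. The sedentary libraries held 48.3, 77.1 and 57.4 TPM. In untrained muscle it stood at 50.1 and 88.1 TPM at 0 h, at 538, 436 and 434 TPM at 6 h and at 99.1, 119 and 87.4 TPM at 72 h. In trained muscle there were 52.7 and 51.2 TPM at 0 h, 196, 77.3 and 26.6 TPM at 6 h and 15.3, 9.40 and 15.1 TPM at 72 h, and the library deposited under both 0 h groups held 35.1 TPM. Untrained 6 h muscle was far above all other groups and trained 72 h muscle below all of them, with the trained 6 h libraries scattered from below to above the sedentary range. The rise in untrained 6 h muscle was 2.95 ± 0.50 on the log2 scale, 7.75-fold, and took the gene to rank 132 of 11822 by level. At 72 h the untrained libraries still lay above the sedentary ones (0.75 ± 0.50) and the trained ones below them (-2.16 ± 0.50), and neither difference was called.

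Xirp1, which encodes the Xin protein laid down at sites of fibre damage and regeneration, was among the genes of this set already above the sedentary range at 0 h. Its level in sedentary muscle was 14.8, 29.1 and 13.7 TPM. In untrained muscle it stood at 32.6 and 32.9 TPM at 0 h, at 209, 330.0 and 223 TPM at 6 h and at 14.2, 17.3 and 14.6 TPM at 72 h. Trained libraries gave 57.4 and 24.5 TPM at 0 h, 94.5, 37.9 and 31.4 TPM at 6 h and 8.34, 7.07 and 6.94 TPM at 72 h, and the library deposited under both 0 h groups held 30.8 TPM. Both untrained 0 h libraries exceeded the 3 sedentary ones, by 0.84 ± 0.44 on the log2 scale, while the 2 trained 0 h libraries lay on either side of the highest sedentary one. Untrained 6 h muscle stood 3.74 ± 0.39 above sedentary muscle, 13.4-fold. Trained 6 h muscle was also higher, by 1.39 ± 0.39 or 2.63-fold, with all 3 libraries above the sedentary ones. The lowest values of Xirp1 were those of trained 72 h muscle, whose mean of 7.45 ± 0.772 TPM (SD, n = 3) lay under the sedentary mean of 19.2 ± 8.59 TPM at a log2 difference of -1.23 ± 0.39 that was not called.

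Xirp2, the larger and more abundant Xin repeat gene, moved over a narrow range. Sedentary muscle gave 202, 211 and 200.3 TPM. In untrained muscle it stood at 203 and 243 TPM at 0 h, at 316, 388 and 309 TPM at 6 h and at 258, 266 and 246 TPM at 72 h. In trained muscle the levels were 231 and 235 TPM at 0 h, 254, 228 and 232 TPM at 6 h and 200.01, 209.5 and 188 TPM at 72 h, and the library deposited under both 0 h groups held 239 TPM. Every untrained 6 h library exceeded every library of the other groups. Its difference to sedentary muscle was 0.71 ± 0.087 on the log2 scale, 1.64-fold, against group means that spanned 1.70-fold in all. Untrained 72 h libraries also lay above the sedentary ones, by 0.33 ± 0.087, which was under the fold threshold.

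Mustn1 was the member that stayed furthest above sedentary muscle at 72 h. Its sedentary libraries were at 18.0, 25.6 and 18.6 TPM. In untrained muscle it stood at 22.3 and 38.9 TPM at 0 h, at 186, 289 and 132 TPM at 6 h and at 85.2, 87.1 and 69.6 TPM at 72 h. In trained muscle the libraries were at 23.6 and 31.3 TPM at 0 h, 73.6, 40.5 and 19.4 TPM at 6 h and 20.3, 22.5 and 18.4 TPM at 72 h, and the library deposited under both 0 h groups held 31.8 TPM. Untrained libraries were highest at 6 h and remained above every sedentary library at 72 h, when the trained libraries overlapped the sedentary ones. The difference to sedentary muscle in untrained mice was 3.20 ± 0.39 at 6 h, 9.19-fold, and 1.95 ± 0.39 at 72 h, 3.85-fold, and the second was not called.

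Nrap, the actin-anchoring protein of nascent myofibrils, had the smallest difference at 6 h of the 7 genes that stood higher there. In sedentary muscle the libraries held 183, 170.0 and 179 TPM. In untrained muscle it stood at 154 and 167 TPM at 0 h, at 276, 294 and 230.3 TPM at 6 h and at 183, 191 and 152 TPM at 72 h. Trained muscle held 178 and 165 TPM at 0 h, 222, 192 and 142 TPM at 6 h and 140.1, 152 and 159.8 TPM at 72 h, and the library deposited under both 0 h groups held 140.4 TPM. The 3 untrained 6 h libraries lay above all others, 0.58 ± 0.14 above sedentary muscle on the log2 scale or 1.498-fold, which was just under the 1.5-fold threshold. The trained 72 h libraries lay below the sedentary ones, at a log2 difference of -0.24 ± 0.14.

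**Figure D1:**
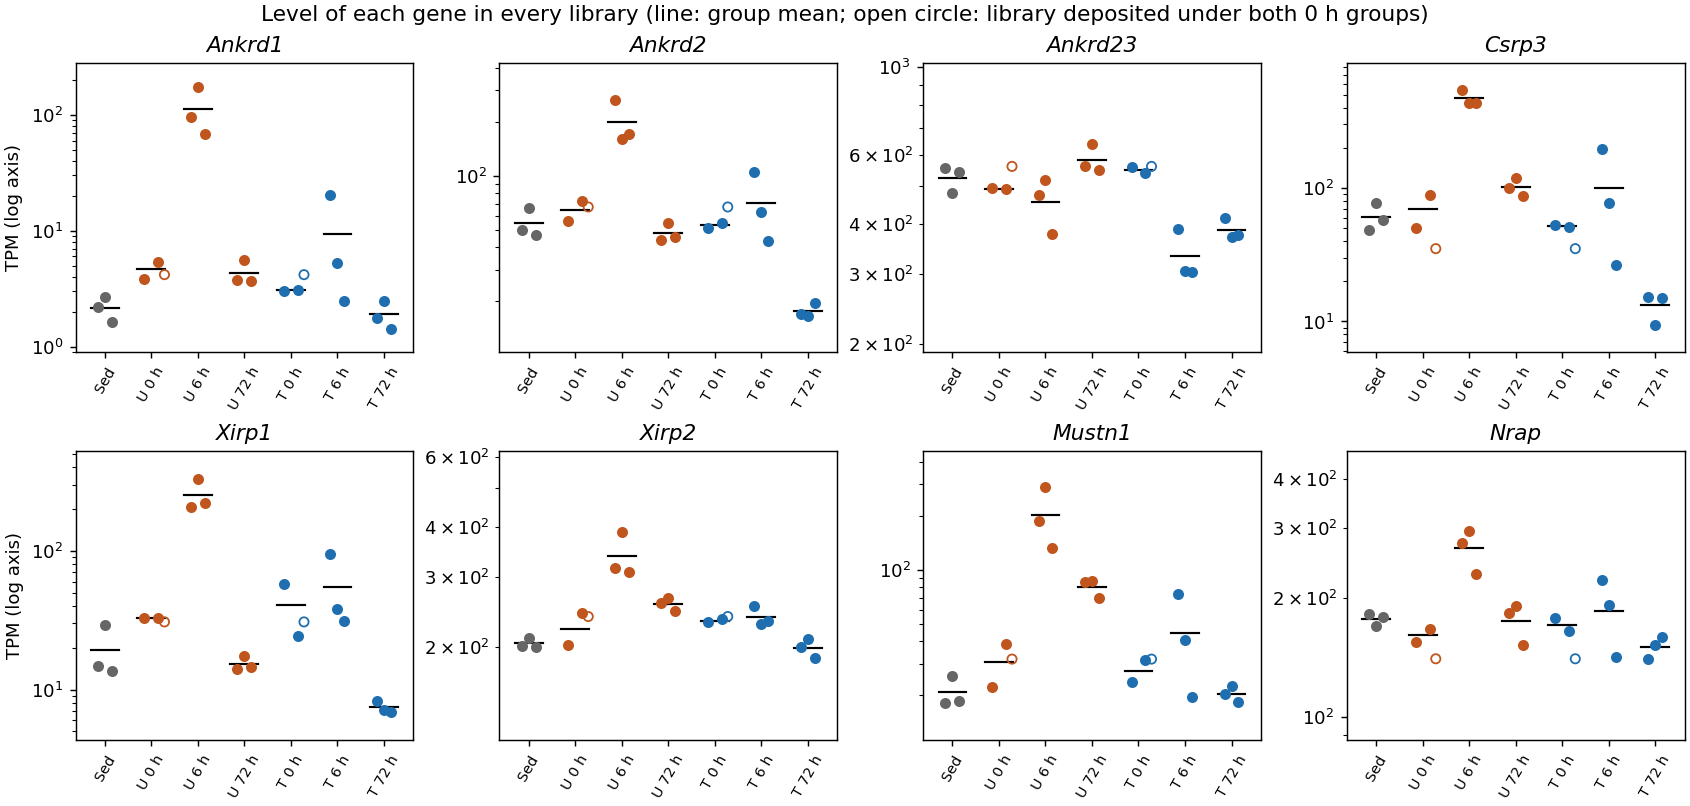
Level of the 8 genes in TPM on a log axis, 1 panel per gene, in sedentary muscle (Sed) and in untrained (U) and trained (T) muscle at each time after the bout. Filled points are libraries, lines are group means without the library found under both 0 h groups, and open circles are that library; untrained 6 h stands above the other groups for all genes but Ankrd23, and trained 72 h has the lowest mean for all but Ankrd23.

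Differences between groups were judged with limma 3.58.1 across the 11822 genes whose mean reached 1 TPM, all 7 groups in 1 fit, and a gene was called at a Benjamini-Hochberg adjusted p below 0.05 and a change of at least 1.5-fold in either direction. The lowest group mean of any member was 1.89 TPM, that of Ankrd1 in trained 72 h muscle, so all 8 passed the filter in every group. In untrained 6 h muscle 6 of the 8 members were called, all higher than in sedentary muscle, where 4.22% of all tested genes were called (499 genes, 400 higher and 99 lower, or 366 and 186 after rescaling without the mitochondrial-genome genes and the 10 highest genes). The median log2 difference of the 8 members was 2.40, against 0.01 over all genes. Nrap lay just outside the threshold and Xirp2 (0.71 ± 0.087) just inside it. Since the members were chosen from results that include this comparison, the share is a description only. Nrap was called as well without sedentary replicate 1 (0.61), sedentary replicate 3 (0.59) or untrained 6 h replicate 3 (0.69).

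Immediately after the bout no member was called. In untrained 0 h muscle the background was 2.89% (342 genes, 287 higher and 55 lower, or 235 and 85 after the same rescaling) and in trained 0 h muscle 3.21% (379 genes, 360 higher and 19 lower, or 252 and 54); by limma, 0 and 1 of the 8 members had an unadjusted p under 0.05, as did 2066 and 2578 of the 11822 tested genes. The members' median log2 difference was 0.20 in untrained and 0.13 in trained muscle, against 0.08 and 0.12 over all genes. With the library of uncertain group counted in both 0 h groups, 0 members were called again, and the difference of Csrp3 in untrained muscle went from 0.15 to -0.15.

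In trained 6 h muscle 2 of the 8 members were called, Xirp1 higher and Ankrd23 lower, at a background of 3.81% (450 genes). The median of the members was 0.30 on the log2 scale and that of all genes -0.01. The differences of Ankrd1 (1.43 ± 0.53), Mustn1 (0.91 ± 0.39), Ankrd2 (0.29 ± 0.26) and Csrp3 (0.31 ± 0.50) were not called, and their libraries overlapped the sedentary ones. The 3 trained 6 h libraries were far apart in these genes. Replicate 1 was the highest for all 8 members, and replicate 3 the lowest for all but Xirp2, with a ratio of the highest to the lowest library of 8.29 for Ankrd1, 7.36 for Csrp3, 3.78 for Mustn1, 3.01 for Xirp1 and 2.41 for Ankrd2. The sum of 8 slow fibre markers was also highest in replicate 1, at 1130.4 TPM against 379.9 TPM in replicate 2 and 607 TPM in replicate 3, and its part in the members' levels was not tested. The call of Xirp1 was lost without trained 6 h replicate 1 (0.91), sedentary replicate 1 (1.25) or sedentary replicate 3 (1.198), and Ankrd1 (2.06) and Mustn1 (1.39) were called without trained 6 h replicate 3. Without trained 6 h replicate 1 they stood at 0.65 and 0.45. The difference of Csrp3 ran from -0.39 to 1.04 with 1 library left out, so its sign was not stable. With only the 2 groups compared in the fit neither Xirp1 nor Ankrd23 was called.

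At 72 h no member was called in untrained muscle, where 1 gene in all was called (0.00846%). That gene was Cd68, a macrophage marker named here after its value was seen. By limma, 2 of the 8 members and 717 of all genes had an unadjusted p under 0.05. In trained 72 h muscle 1 member was called, Ankrd2, at a background of 0.245% (29 genes, 14 higher and 15 lower, or 38 and 10 after rescaling). Csrp3, Xirp1, Ankrd23 and Nrap also had all 3 libraries below the sedentary ones without being called, and the members' median was -0.34 against -0.04 over all genes. The share of all tested genes with such separation was not counted. Across the alternative settings the difference of Ankrd23 ran from -0.44 to -0.35 and that of Nrap from -0.24 to -0.15. The call of Ankrd2 was lost without any 1 of the 6 libraries, at log2 differences of -1.67 to -1.43.

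**Figure D2:**
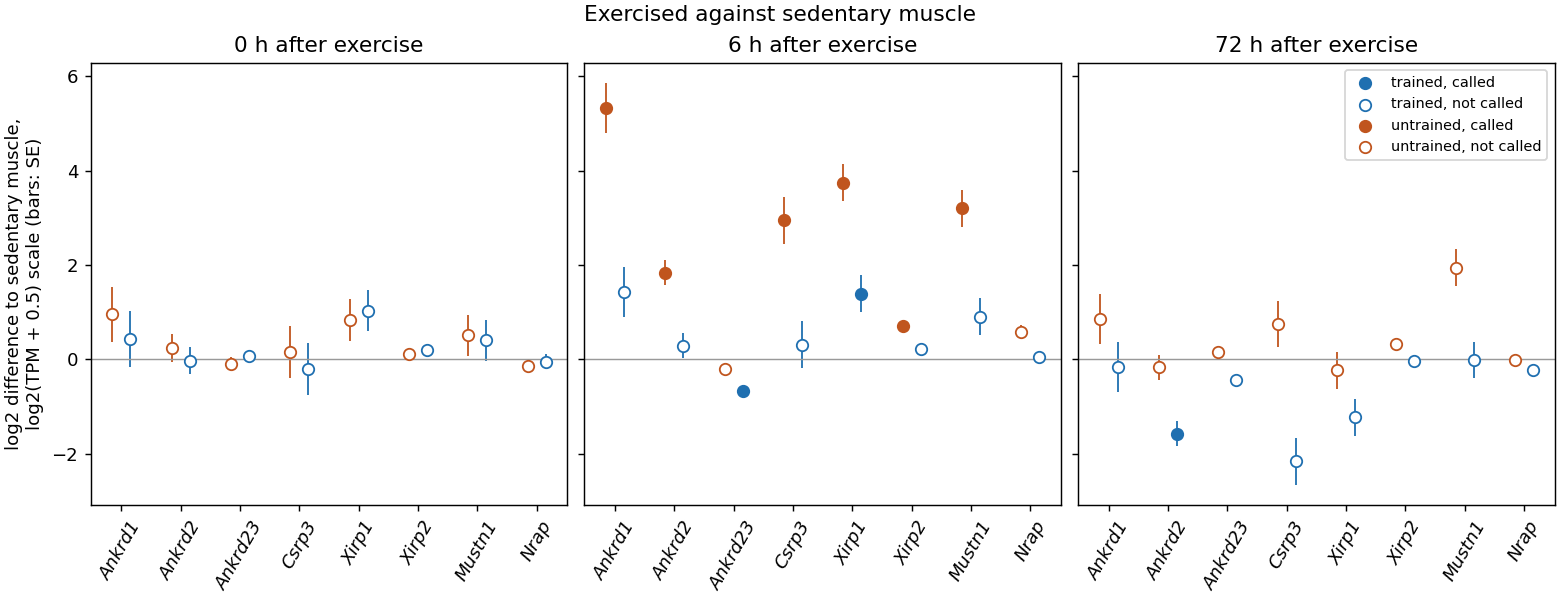
Log2 difference of each member to sedentary muscle at each of the 3 times on the log2(TPM + 0.5) scale, untrained in orange and trained in blue, with the standard error of the fit as bars and filled points for called differences. Untrained 6 h values reach 5.33 for Ankrd1 while the trained ones stay at or below 1.43.

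The direct comparison of trained with untrained muscle at the same time addresses whether the endurance-trained state goes with another level of these genes after the bout. Since no trained mice went without the bout, a standing effect of the 12 weeks of running and a changed response to the bout cannot be told apart in it. At 6 h, 5 of the 8 members were called, all lower in trained muscle, at a background of 1.93% (228 genes, 69 higher and 159 lower, or 135 and 138 after rescaling). Ankrd1 was 14.9-fold lower, a log2 difference of -3.90 ± 0.53. The SE pools all 7 groups and does not show the wider spread in trained 6 h muscle. There Ankrd1 ran from 2.47 to 20.5 TPM, and Csrp3 from 26.6 to 196 TPM. Csrp3 differed by -2.65 ± 0.50, Xirp1 by -2.35 ± 0.39, Mustn1 by -2.29 ± 0.39 and Ankrd2 by -1.56 ± 0.26. In each of these 5 genes the highest trained library lay below the lowest untrained one. They were picked by the call, and the share of all tested genes separated in this way was not counted. The differences of Nrap (-0.54 ± 0.14), Xirp2 (-0.50 ± 0.087) and Ankrd23 (-0.45 ± 0.12) were under the fold threshold, and without untrained 6 h replicate 3 Nrap (-0.64) and Ankrd23 (-0.59) were called, as was Nrap without trained 6 h replicate 1 (-0.68). The members' median was -1.92 and that of all genes -0.04. Trained 6 h replicate 1 and replicate 3 moved 2 of these values by over 1.5-fold: Ankrd1 was -4.68 without replicate 1 and -3.27 without replicate 3, and Csrp3 was -3.35 and -1.92. All 5 calls were lost when only the 2 groups compared entered the fit. The 6 calls of untrained 6 h against sedentary muscle were kept in such a fit. The cause was not tested.

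At 72 h 4 of the 8 members were called, all lower in trained muscle, at a background of 0.364% (43 genes, 13 higher and 30 lower, or 21 and 13 after rescaling). Csrp3 was 7.53-fold lower (-2.91 ± 0.50), with trained libraries at 15.3, 9.40 and 15.1 TPM and untrained ones at 99.1, 119 and 87.4 TPM. Mustn1 was 3.87-fold lower (-1.95 ± 0.39) and Ankrd2 2.66-fold lower (-1.41 ± 0.26). Ankrd23 lay just inside the fold threshold at -0.59 ± 0.12. By their levels these 4 genes stood differently to sedentary muscle, though of their differences to it at 72 h only that of Ankrd2 in trained muscle was called. Mustn1 was at its sedentary level in trained muscle and above it in untrained muscle. Ankrd2 was near its sedentary level in untrained muscle and below it in trained muscle. Ankrd23 overlapped the sedentary libraries in untrained muscle and lay below them in trained muscle. Csrp3 lay above the sedentary libraries in untrained and below them in trained muscle. Ankrd1, Xirp1 and Xirp2 also had every trained library below every untrained one, at -1.02 ± 0.53, -0.998 ± 0.39 and -0.37 ± 0.087, and were not called. How common such separation was over all tested genes was not counted. The members' median was -1.01 against -0.08 over all genes. The calls of Ankrd2, Ankrd23 and Mustn1 were lost without any 1 of the 6 libraries, while their differences stayed within -1.48 to -1.32, -0.64 to -0.52 and -2.06 to -1.88. Csrp3 kept its call without trained 72 h replicate 1 and lost it without any of the other 5, at -3.02 to -2.69. Under median-of-ratios scaling, after rescaling and with no filter on low values, Csrp3 was the 1 member called.

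At 0 h trained and untrained muscle did not differ in any called gene: by limma 0 members and 0 of all genes were called (0%), and 0 members and 527 genes had an unadjusted p under 0.05. The members' differences ran from -0.52 ± 0.65 for Ankrd1 to 0.19 ± 0.48 for Xirp1, with 2 libraries a group. The comparisons with sedentary muscle share the 3 sedentary libraries, and those between trained and untrained muscle share their exercised libraries with them, so their values are given side by side and not as separate support.

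**Figure D3:**
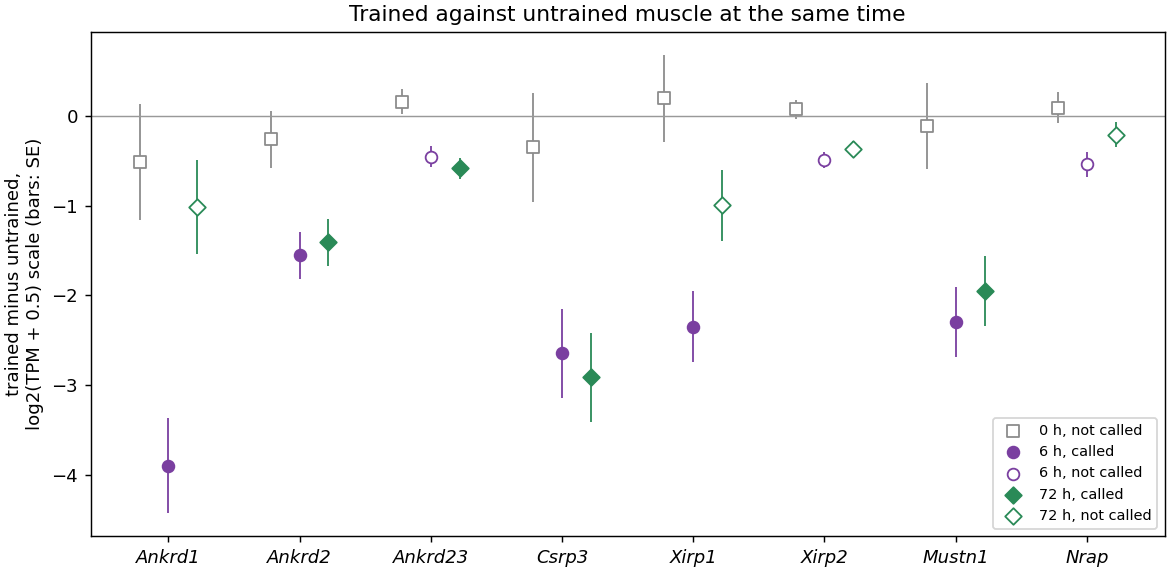
Trained minus untrained muscle at 0 h (squares), 6 h (circles) and 72 h (diamonds) for each member on the log2(TPM + 0.5) scale, with standard errors as bars and filled symbols for called differences. The 6 h and 72 h values all lie below 0, from -3.90 for Ankrd1 at 6 h to -0.21 for Nrap at 72 h, and those at 0 h lie around 0. The medians over all genes were also below 0, at -0.04 at 6 h and -0.08 at 72 h. The libraries of Ankrd23 at 6 h and of Nrap at 72 h overlapped, and across the alternative settings Nrap at 72 h ran from -0.215 to -0.101.

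Markers of other cells moved beside these results. All 8 slow fibre markers were detected, with sums of 535 to 1006 TPM in sedentary, 246 to 371 TPM in untrained 6 h, 379.9 to 1130.4 TPM in trained 6 h, 354 to 506 TPM in untrained 72 h and 276 to 421 TPM in trained 72 h muscle. All untrained libraries, at 0 h (268 to 395 TPM), 6 h and 72 h, and all trained 72 h libraries thus lay below the lowest sedentary one. The 6 macrophage markers summed to 17.2 to 19.9 TPM in sedentary, 19.3 to 40.6 TPM in untrained 6 h, 14.7 to 19.97 TPM in trained 6 h, 27.7 to 28.4 TPM in untrained 72 h and 19.1 to 22.7 TPM in trained 72 h muscle. The 6 tendon markers, of which 5 reached 1 TPM, ranged from 32.7 to 121 TPM in untrained 6 h, from 27.0 to 40.4 TPM in trained 6 h and from 40.2 to 56.95 TPM in sedentary muscle. Macrophage and tendon sums of trained and untrained 6 h muscle overlapped, with the highest library in untrained muscle. The 7 fast glycolytic fibre markers summed to 63437 to 74374 TPM in sedentary, 66499 to 71622 TPM in untrained 6 h and 59665 to 63996 TPM in trained 6 h muscle, so that at 6 h the trained libraries lay below the untrained ones. At 72 h these sums were 68961 to 74296 TPM in untrained and 64893 to 65082 TPM in trained muscle, again with no overlap. The mitochondrial-genome share of TPM was higher in the trained libraries, at 45.7% to 47.0% against 40.6% to 43.7% at 6 h. At 72 h it was 46.7% to 48.0% against 42.3% to 44.3%. Since TPM share one total, a higher mitochondrial share lowers other sums, and its part in the fast fibre sums was not tested. The 4 satellite cell markers, of which 2 reached 1 TPM, stayed between 4.13 and 5.40 TPM in every library. Among the untrained 6 h libraries replicate 2 had the highest macrophage, tendon and fibro-adipogenic sums. It was also the highest of them for all members but Ankrd2 and Csrp3, which were highest in replicate 1. The part of these cells in the members' levels was not tested, and no marker was at 0 in any library.

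Across the 19 libraries of the fit, 7 of the members varied together and Ankrd23 did not. Pairwise Pearson r of log2(TPM + 0.5) among those 7 lay between 0.73 and 0.95, and between Ankrd23 and each of them from -0.05 to 0.25. These values are a description over libraries that share the sampling times. The genes most like Ankrd1 were Klhl40 (r = 0.98), Lmcd1 (0.97) and Rnf115 (0.97). For Xirp1 they were Tnfrsf12a (0.97), Dnaja4 (0.97) and Rcan1 (0.97). Ankrd2 was most like Csrp3 (0.95), Tnfrsf12a (0.94) and Arl6ip5 (0.93), and Csrp3 after Ankrd2 was most like Arl6ip5 (0.95) and Lmcd1 (0.92). Xirp2 and Mustn1 were most like each other (0.95), followed by Gm13889 (0.93) and Klhl41 (0.92) for Xirp2 and by Rrad (0.94) and Ankrd1 (0.90) for Mustn1. Nrap was most like Habp2 (0.95), Lmcd1 (0.92) and Klhl41 (0.92). Ankrd23 stood apart with Bphl (0.91), Timm8b (0.89) and Rps12 (0.88).

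The neighbourhood of these proteins was described with 4 lists of 99 genes, of which 93 were tested, and 20 genes were called in at least 1 comparison. The lists hold Z-disc proteins and titin partners, costamere and adhesion proteins, the YAP, TAZ and TEAD pathway, and SRF, MRTF and actin signalling. They were chosen with earlier results of these data known. The shares called in them and their adjusted p-values are therefore a description and no separate support. In untrained 6 h muscle 10 of the 93 were called, or 10.8% against the 4.22% of all genes, and 9 of these were higher; with only the groups compared in the fit 6 were called. Of 34 Z-disc genes 4 rose. Flnc, the filamin that crosslinks actin at the Z-disc, rose from 42.1 ± 1.45 to 266 ± 35.3 TPM (SD, n = 3 each), by 2.64 ± 0.18 (adjusted p = 1.02e-06) on the log2 scale. Cryab, a small heat shock protein that binds desmin and titin, rose by 1.94 ± 0.19 (adjusted p = 2.68e-05), Lmod2, a nucleator of thin filament actin, by 1.64 ± 0.26 (adjusted p = 0.00132) and Cavin4, a caveolar coat protein of muscle, by 0.77 ± 0.15 (adjusted p = 0.00487). Fhl1, a LIM protein of the titin I-band, stood at 0.88 ± 0.26 (adjusted p = 0.0522) and was not called. The call of Cavin4 was lost without untrained 6 h replicate 2 (0.56).

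Of 26 costamere and adhesion genes 3 rose and 1 fell in untrained 6 h muscle. Lmcd1, a LIM and cysteine-rich protein that acts in calcineurin signalling, rose from 42.3 ± 3.34 to 207 ± 24.1 TPM, by 2.27 ± 0.26 (adjusted p = 7.79e-05). Dysf, the membrane repair protein dysferlin, rose by 1.06 ± 0.19 (adjusted p = 0.00260) and Vcl, the focal adhesion protein vinculin, by 0.89 ± 0.14 (adjusted p = 8.48e-04). Vasp, an actin elongation factor of focal adhesions, fell at a log2 difference of -0.77 ± 0.14 (adjusted p = 0.00305). Of 16 genes in the YAP, TAZ and TEAD list Ccn1, a matricellular target of the pathway, rose by 2.44 ± 0.31 (adjusted p = 1.86e-04), and of 17 in the SRF and actin list Abra, an activator of MRTF and SRF signalling, rose by 2.31 ± 0.25 (adjusted p = 5.43e-05).

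At 0 h, when no member was called, the genes called in the 4 lists included 4 of 16 in the YAP, TAZ and TEAD list and 3 of 17 in the SRF and actin list, in each state; the medians of the 2 lists were 0.28 and 0.19 on the log2 scale in untrained and 0.30 and 0.24 in trained muscle, against 0.08 and 0.12 over all genes. In untrained 0 h muscle 4 of 16 YAP list genes rose, namely Ccn1 by 2.96 ± 0.34 (adjusted p = 1.12e-04), Ccn2, another matricellular target, by 1.69 ± 0.31 (adjusted p = 0.00564), Amotl2, a YAP-binding angiomotin, by 1.22 ± 0.23 (adjusted p = 0.00575) and Lats2, the kinase that restrains YAP, by 0.59 ± 0.12 (adjusted p = 0.0132). The same 4 genes rose in trained 0 h muscle, by 3.26 ± 0.34 (adjusted p = 4.74e-05), 2.17 ± 0.31 (adjusted p = 6.90e-04), 1.13 ± 0.23 (adjusted p = 0.00952) and 0.66 ± 0.12 (adjusted p = 0.00567). Abra rose by 1.69 ± 0.28 (adjusted p = 0.00236) in untrained and 1.73 ± 0.28 (adjusted p = 0.00183) in trained muscle. Actg1 rose by 1.07 ± 0.19 (adjusted p = 0.00321) and 1.14 ± 0.19 (adjusted p = 0.00181), and Actb by 1.03 ± 0.17 (adjusted p = 0.00194) and 0.63 ± 0.17 (adjusted p = 0.0445); both are cytoplasmic actins whose reads can be shared with near-identical copies, so their values are uncertain. Among adhesion genes Bcar1, a scaffold that signals stretch at adhesions, rose by 0.76 ± 0.12 (adjusted p = 0.00126) and 0.61 ± 0.12 (adjusted p = 0.00600), and Vcl rose in untrained muscle by 0.59 ± 0.15 (adjusted p = 0.0429). Csrp1, a LIM relative of Csrp3 that the naming rule left out and that was named after its value was seen, rose in trained 0 h muscle by 0.63 ± 0.12 (adjusted p = 0.00589). In each 0 h group 9 of the 93 genes were called, or 9.68% against 2.89% of all genes in untrained and 3.21% in trained muscle. In trained 0 h muscle 5 remained under median-of-ratios scaling, without Actb, Bcar1, Lats2 and Csrp1, and in untrained muscle 7, without Vcl and Lats2. With only the groups compared in the fit, 3 were called in untrained and 1 in trained muscle. With the library of uncertain group in both, 8 and 10 were called, and Lats2 (0.58) and Vcl (0.50) lost their calls in untrained muscle. Lats2 and Vcl in untrained muscle, and Actb and Bcar1 in trained muscle, lost their calls without 3 or more of the 5 libraries, at differences between 0.47 and 0.75. A single library decided the calls of Ccn2 (untrained 0 h replicate 2, 1.59 without it) and Amotl2 (untrained 0 h replicate 3, 0.94 without it) in untrained muscle, and of Amotl2 and Lats2 (trained 0 h replicate 2, 1.01 and 0.52 without it) in trained muscle.

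In trained 6 h muscle 4 of the 93 genes were called, or 4.30% against the 3.81% of all genes, so the share over the lists was near the background. Flnc rose by 0.98 ± 0.18 (adjusted p = 0.00324), Abra by 0.92 ± 0.25 (adjusted p = 0.0314) and Vcl by 0.70 ± 0.14 (adjusted p = 0.00505), and Tead1, a DNA-binding partner of YAP, fell at -0.61 ± 0.16 (adjusted p = 0.0239). Compared with untrained muscle at 6 h, 9 of the 93 were lower in trained muscle and none higher (9.68% against 1.93% of all genes). These were Lmcd1 at -2.11 ± 0.26 (adjusted p = 4.61e-04), Ccn1 at -2.03 ± 0.31 (adjusted p = 0.00215), Flnc at -1.65 ± 0.18 (adjusted p = 1.89e-04), Cryab at -1.56 ± 0.19 (adjusted p = 5.40e-04) and Abra at -1.39 ± 0.25 (adjusted p = 0.00621). Lmod2 differed by -1.03 ± 0.26 (adjusted p = 0.0407), Cavin4 by -0.90 ± 0.15 (adjusted p = 0.00381), Dysf by -0.71 ± 0.19 (adjusted p = 0.0472) and Pdlim3, an actinin-binding Z-disc protein, by -0.70 ± 0.11 (adjusted p = 0.00293). The calls of Tead1 and Abra in trained muscle, and of Lmod2 and Dysf between trained and untrained muscle, were lost without 4 or 5 of the 6 libraries, and that of Dysf also under median-of-ratios scaling. Vcl in trained muscle lost its call without 1 library, trained 6 h replicate 3 (0.55). All 9 calls between trained and untrained muscle, and all 4 in trained muscle, were lost when only the 2 groups compared entered the fit.

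At 72 h none of the 93 genes was called against sedentary muscle in either state, and 5 in untrained and 20 in trained muscle had an unadjusted p under 0.05 by limma, as did 717 and 1512 of the 11822 tested genes. Between trained and untrained 72 h muscle Fhl1 was lower in trained muscle, at 138 ± 4.99 against 325 ± 38.6 TPM (SD, n = 3 each) and a log2 difference of -1.22 ± 0.26 (adjusted p = 0.0431). This call was lost without any 1 of the 6 libraries, at -1.29 to -1.13, and under median-of-ratios scaling (-1.13). At 0 h limma called none of the 93 between the trained and untrained states, and 6 had an unadjusted p under 0.05, as did 527 of the 11822 tested genes.

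**Figure D4:**
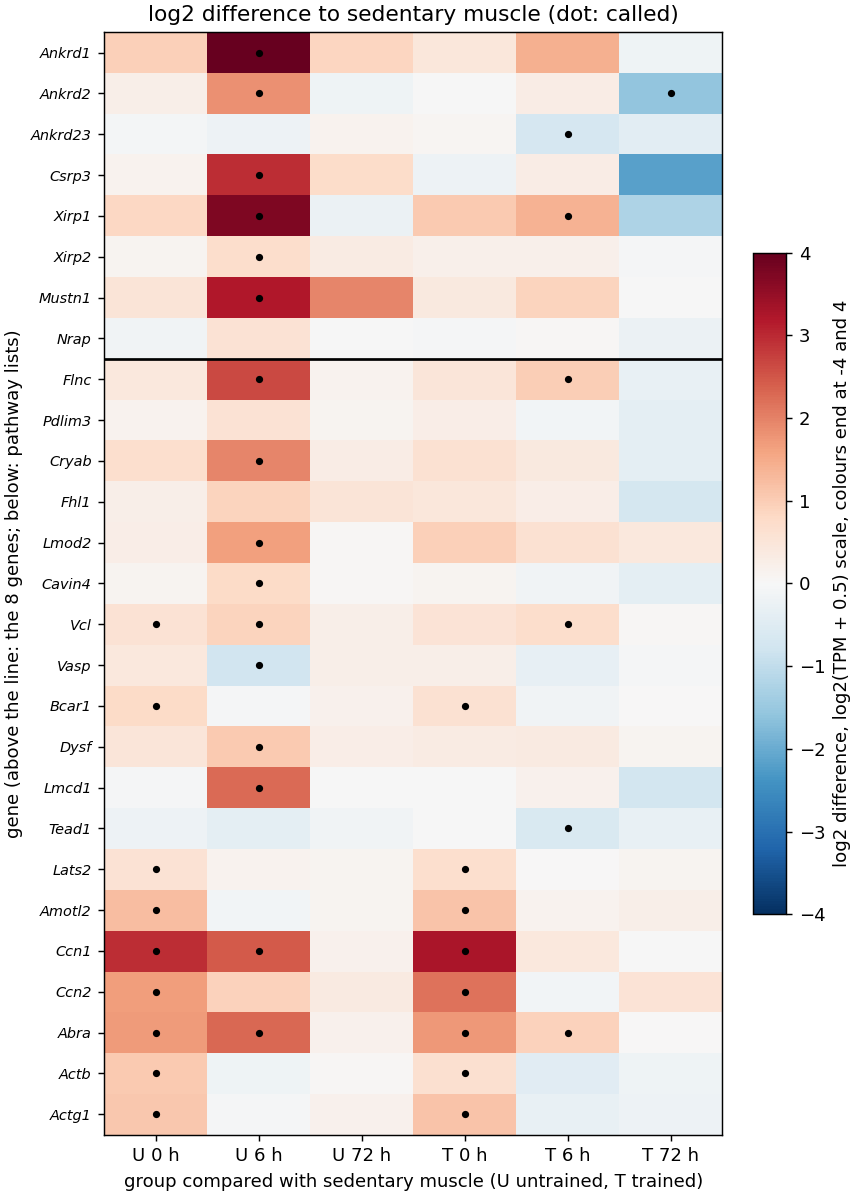
Log2 difference to sedentary muscle in the 6 exercised groups (columns, U untrained and T trained) for the 8 members above the line and 19 named genes of the 4 lists below it, with a dot where a difference was called and colours that end at -4 and 4. All members but Ankrd23, and Flnc, Cryab and Lmcd1, are darkest in untrained 6 h muscle, while Ccn2, Amotl2, Actb and Actg1 are marked at 0 h in both states.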

How the data were processed

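The authors prepared libraries from total quadriceps RNA, aligned the paired-end reads to GRCm39 with STAR 2.7.9 and quantified them with salmon 1.5.0 (versions from the submitters' processing notes), and deposited TPM values for 53738 symbols in 21 libraries. The values were used as deposited. TPM hold no counts, so no counting error can be given. The members and the lists were chosen with earlier results of these data known. For the members values, differences and calls are given, and where none was called also how many had an unadjusted p under 0.05, with no p-value for any one of them.

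Values were transformed to log2(TPM + 0.5) and symbols with a mean of at least 1 TPM were kept (11822). The fit used limma 3.58.1 (R 4.3.3) with a mean per group on 19 libraries, a variance trend and 12 residual degrees of freedom, and p-values were adjusted over all kept genes (Benjamini-Hochberg) in each of 9 comparisons. The procedure was tested on simulated data in which each gene had the same spread in all groups. That test could not check calls in groups of unequal spread, such as trained 6 h muscle. Adjusted p-values in the text are from this limma fit. Genes named from the 4 lists were called in at least 1 comparison, at most 6 per list by size of the difference, and likeness names the 3 genes with the highest r per member. Gene positions came from GENCODE vM39, which held 11598 of the kept symbols and all 8 members. Plots used matplotlib 3.10.9 (Python 3.11.15). Alternatives were pseudocounts of 0.1 and 1, no filter and a mean of 5 TPM, median-of-ratios scaling, TPM rescaled without mitochondrial-genome genes and the highest 10 genes, the replicate number as a block, the identical library kept in one or both 0 h groups, only the groups compared, and each library left out in turn.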

Additional observations from a re-analysis of the deposited data

Results flagged for a closer look

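The direct comparison of trained with untrained muscle at one time tests whether the 2 states differ, and 9 member differences were picked out by it. At 6 h the log2 differences were -3.90 for Ankrd1, -2.65 for Csrp3, -2.35 for Xirp1, -2.29 for Mustn1 and -1.56 for Ankrd2. At 72 h they were -2.91 for Csrp3, -1.95 for Mustn1, -1.41 for Ankrd2 and -0.59 for Ankrd23. Trained muscle was lower in all 9, and in all 9 no trained library reached the lowest untrained one. The 9 were picked by the call itself, which favours such separation. Its share over all tested genes was not counted, so it is no separate support. The members were chosen with these values known, so the differences are a description. No group was large enough to examine for a single sample far from the rest.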

How the results depend on the processing

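The 6 calls in untrained 6 h muscle were kept under all 11 alternatives and without each of the 6 libraries, and 0 members were called in both 0 h groups and in untrained 72 h muscle throughout. In trained 6 h muscle the 2 calls became 1 without a filter on low values and 0 with only the groups compared, with 1 to 4 when a library was left out. In trained 72 h muscle the 1 call became 0 without a filter or with only the groups compared and 2 at a mean of 5 TPM, where Csrp3 was added, and leaving out a library gave 0 to 0. Between trained and untrained muscle at 6 h the 5 calls became 0 with only the groups compared and were 5 to 7 without a library. At 72 h the 4 calls became 1, that of Csrp3, without a filter, under median-of-ratios scaling and after rescaling, and 0 to 1 without a library. The cause was not tested. The replicate block left 3 of these 4, without Mustn1, and changed no other call of a member; it changed the count over all genes in trained 72 h muscle from 29 to 12 and in untrained 72 h muscle from 1 to 0. Same-numbered libraries did not deviate together over all tested genes (r from -0.09 to 0.09 in 52 pairs). This correlation cannot exclude a pairing by number that touches few genes. Counts over all genes ran under the alternatives from 180 to 451 for untrained 0 h (342), 217 to 561 for untrained 6 h (499), 0 to 9 for untrained 72 h (1), 118 to 458 for trained 0 h (379), 249 to 547 for trained 6 h (450) and 9 to 48 for trained 72 h (29), and between the states from 0 to 36 at 0 h (0), 26 to 273 at 6 h (228) and 22 to 48 at 72 h (43). Median-of-ratios scaling moved the median of all genes in trained 0 h muscle from 0.12 to -0.0049. Without a library at 0 h the lone library of that group was assumed to vary like the other groups.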
